A study of Homo sapiens with 2 samples.

Results

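Ribosomes are assembled in the nucleolus, where RNA polymerase I transcribes the ribosomal RNA precursor and a large set of assembly factors folds, modifies and cuts it. The small subunit (SSU) processome, built around the U3 small nucleolar RNA (snoRNA), matures the SSU rRNA, and a separate series of factors builds the large subunit (LSU). Box C/D and box H/ACA ribonucleoproteins (snoRNPs) guide the 2′-O-methylation and pseudouridylation of rRNA. In growing and transformed cells many of these genes are known as targets of the transcription factor MYC.

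The nucleolar ribosome biogenesis factors described here are 50 genes listed by their role in rRNA processing and subunit assembly. They comprise 20 SSU factors, 18 LSU factors, 3 box C/D core proteins, 4 box H/ACA core proteins and 5 nucleolar chaperones or other nucleolar proteins. They were found through the gene symbol of each probe, older names included, and set among the 13164 genes measured on the arrays. The cells were K562, an established line from chronic myeloid leukaemia driven by the BCR-ABL kinase. Parental K562 cells were kept without drug. NilotinibR cells were raised from them over 3 months of rising nilotinib, an inhibitor of that kinase, until they grew routinely at 1 µM. The paper states that resistant cells were maintained in medium with that dose. Total RNA of parental and of nilotinibR cells was hybridized to Illumina HumanHT-12v4 arrays, and the deposited data hold 1 array of each. Every difference below is therefore between 2 arrays, with no replicate check and no test.

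Values are normalized intensities, which include a constant offset of 50, and a gene was called lower or higher when they differed by at least 1.5-fold. A gene counted as measured when 1 of its probes lay above the dim probes of at least 1 array. Probes differ in brightness for reasons other than expression, so an intensity is read only against the same gene on the other array. The median difference over all genes was 0.00 on the log2 scale. Of the K562 markers, the fetal globin HBG1 read 17278 on the parental and 18389 on the nilotinibR array, and the erythroid factor GATA1 read 546 and 601. TAL1, LMO2 and TFRC were higher in nilotinibR cells, by 3.69-fold, 2.62-fold and 1.75-fold. Of 6 granulocyte and monocyte markers, MPO, ELANE and CSF3R were dim on both arrays, and 3 were measured, LYZ at 115 on the parental and 94.0 on the nilotinibR array, CD14 at 82.3 and 73.9 and ITGAM at 82.5 and 65.0. The 4 measured lymphoid markers of 6 read between 61.3 and 83.4. The lowest reading among probes above the dim level of the nilotinibR array itself was 73.2. In RNA from whole cultures, fewer cells of a kind and less RNA per cell cannot be told apart.

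Of the 50 factors, 46 were measured and 43 lay above the dim probes on both arrays. In nilotinibR cells 30 of the 46 were at least 1.5-fold lower and 0 were higher, where 8.22% of all measured genes were lower and 7.51% were higher. All 30 that were lower lay among the 43. The share of all genes is not matched for brightness. The median parental reading was 582 for these factors and 132 for all genes, and the offset compresses differences of dim readings. With probes required above the dim ones on both arrays, 10.1% of genes were lower. The median log2 difference of the 46 was −0.93, a 1.91-fold lower level. At 2-fold, 19 of them were lower, beside 2.78% of all genes. By any amount, 44 were below their parental level and 2, RRP8 and NOL10, above it. WDR43, EBNA1BP2 and GNL3 were not analysed here. The single probe for NPM1, which is annotated to only 1 of its transcript records, was dim on both arrays.

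**Figure D1:**
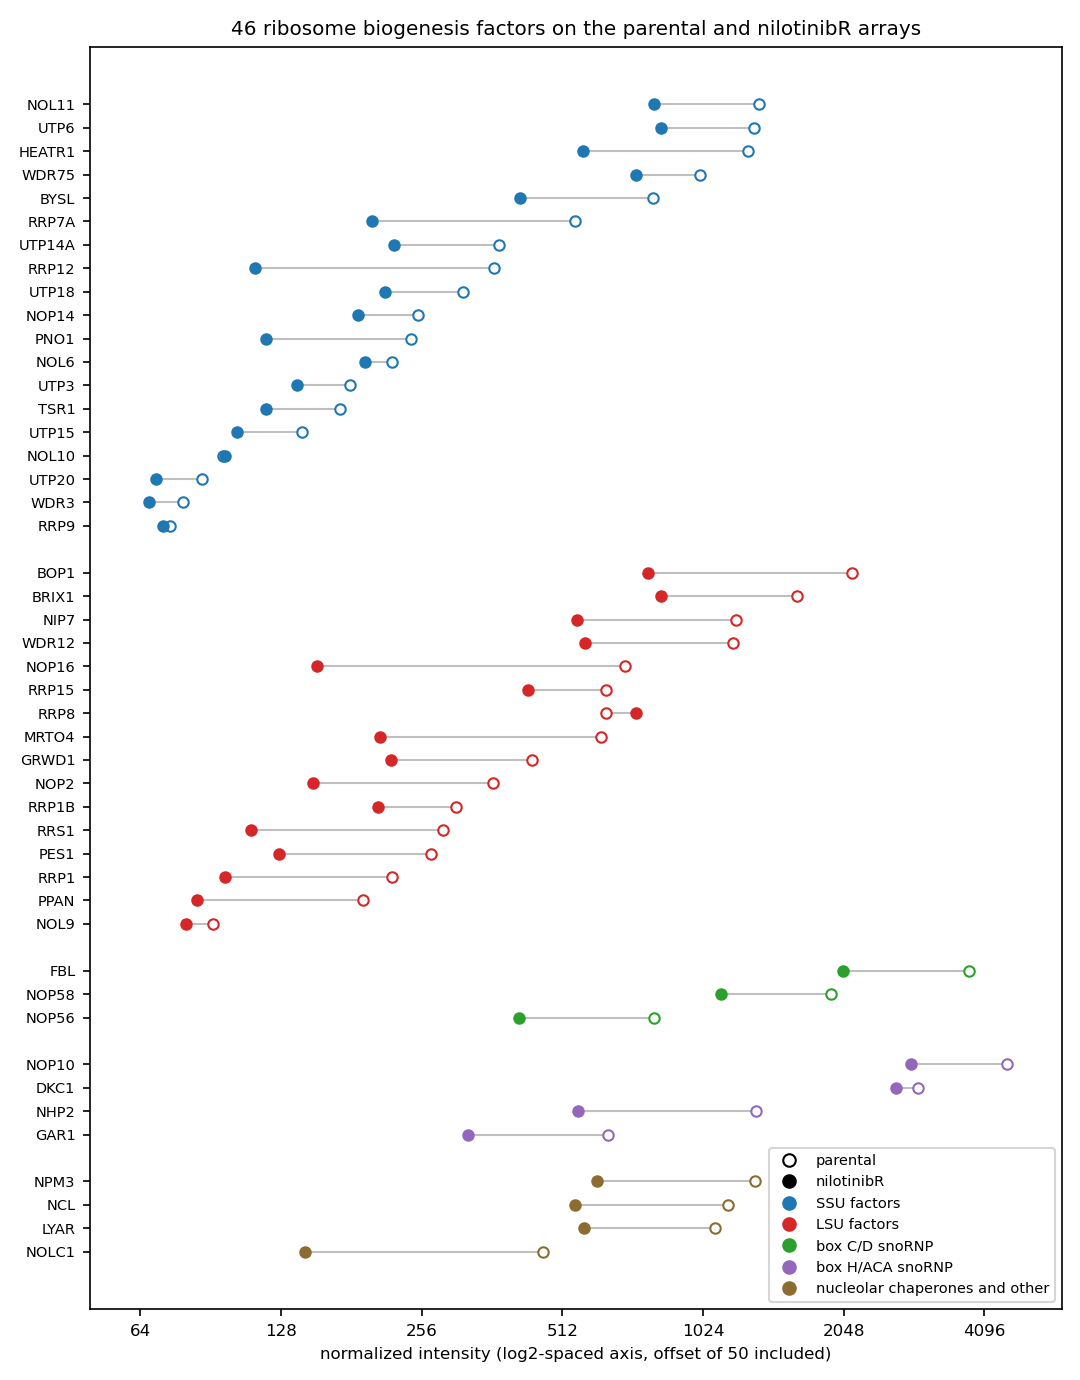
Normalized intensity (log2-spaced axis, offset of 50 included) of the 46 measured factors, grouped by role, with open circles for the parental and filled circles for the nilotinibR array. In 44 of 46 the filled circle lies to the left. Horizontal position is read within a gene, not between genes.

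The repeat readings on these arrays are the probes of 1 gene. Of the 65 measured probes of these factors, 62 read lower in nilotinibR cells. For 13 factors with several measured probes, the difference between arrays varied from probe to probe with a pooled SD of 0.16 on the log2 scale, and 12 of the 13 had all probes on the same side of 0. NOL6, a structural protein of the SSU processome, was the exception. It averaged 222 in parental and 194 in nilotinibR cells over 2 probes, whose log2 differences were −0.44 and 0.05. The first of these probes went from 642 to 474, and the second read 76.6 and 79.2, close to the dim probes. Probes of 1 gene share the RNA and the array, so their agreement is not a replicate of the cells.

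**Figure D2:**
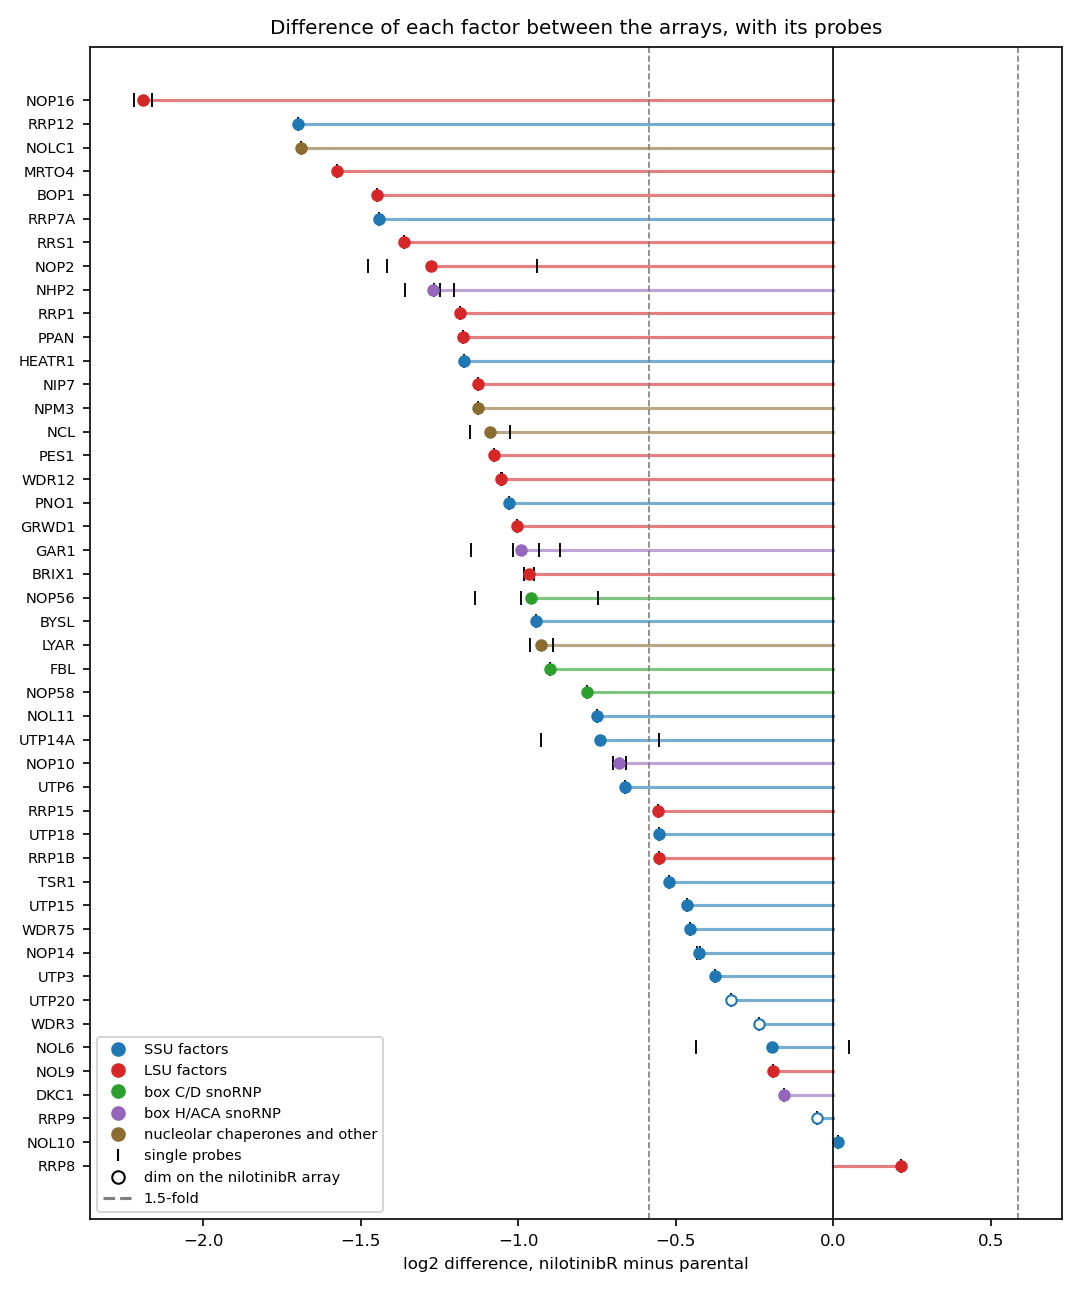
Log2 difference, nilotinibR minus parental, of each of the 46 factors (circles, coloured by role) with its single probes (vertical ticks). Dashed lines mark 1.5-fold. The points run from −2.19 for NOP16 to 0.21 for RRP8, and the 3 open circles are factors dim on the nilotinibR array.

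The LSU factors held the largest decrease. NOP16, an LSU assembly factor known in yeast, read 697 in parental and 153 in nilotinibR cells, 4.56-fold lower (log2 difference −2.19), and its 2 probes gave −2.22 and −2.16. MRTO4, whose yeast counterpart holds the place of the stalk protein P0 in the nascent subunit, went from 621 to 208, 2.98-fold lower. RRS1, which with its partner RPF2 brings in the 5S ribonucleoprotein, read 285 and then 111, 2.57-fold lower. NOP2, the LSU rRNA cytosine methyltransferase, went from 364 to 150, 2.42-fold lower, with its 3 measured probes between −1.48 and −0.94. Another NOP2 probe was dim on both arrays, and with it averaged in NOP2 was at −1.02. All 4 of these factors had their parental reading well over 1.5-fold above the nilotinibR one.

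BOP1, PES1 and WDR12 form the PeBoW complex, which is needed for maturation of the LSU rRNA. BOP1 read 2135 in parental and 783 in nilotinibR cells, 2.73-fold lower. PES1 read 268 and 127, 2.11-fold lower. WDR12 read 1189 and 573, 2.08-fold lower, and its 2 probes both gave −1.05. The 3 subunits were therefore each lower by more than 2-fold with these settings. With no background correction PES1 was at −0.859 and WDR12 at −0.996, short of 2-fold, and on the deposited intensities PES1 was at −0.861. Also among the largest decreases were RRP1, from 221 to 97.4 (2.27-fold lower), PPAN, from 192 to 84.9 (2.26-fold lower), and NIP7, from 1205 to 551 (2.19-fold lower). RRP1 rests on 1 of its 2 probes, and with the dim one averaged in it was at −0.58 and no longer past the limit. GRWD1 and BRIX1 completed the 12 LSU factors that were lower, by 2.01-fold and 1.95-fold.

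RRP15 and RRP1B missed the 1.5-fold limit at −0.56 and −0.55, and NOL9, the polynucleotide kinase that acts on the cut LSU precursor, stood at −0.19. RRP8, a nucleolar protein that methylates an adenine of the LSU rRNA, was the only LSU factor above its parental level, with 634 in parental and 735 in nilotinibR cells, 1.16-fold higher. That is within the 1.5-fold limit, as was the reading of NOL10 among the SSU factors, which was 96.2 and 97.1. In both genes 1 probe was read.

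Among the SSU factors, 8 of the 19 measured were lower and 0 were higher. RRP12, required in yeast for export of pre-ribosomes, read 366 in parental and 113 in nilotinibR cells, 3.24-fold lower. RRP7A, part of the UTP-C module of the processome, went from 546 to 201, 2.72-fold lower, on 1 of its 2 probes, the second being dim on both arrays. HEATR1, the human UTP10, which links rDNA transcription to processing, went from 1275 to 566, 2.25-fold lower. These 3 and PNO1 were the SSU factors lower by more than 2-fold, PNO1 going from 243 to 119.

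The other SSU factors that were lower had smaller differences. BYSL, needed for late SSU maturation, stood at −0.94, NOL11 at −0.75, UTP14A at −0.74 and UTP6 at −0.66. The 2 probes of UTP14A gave −0.93 and −0.55. NOL11 and HEATR1 belong to the UTP-A module, of which UTP15 and WDR75 did not pass the limit, at −0.46 and −0.45. UTP18, TSR1, NOP14 and UTP3 also fell short of it, between −0.55 and −0.38.

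For 3 SSU factors only the parental reading rose over the dim probes, so their difference has a lower bound set by the dimmest measured probes. UTP20 was at least 1.18-fold lower, WDR3 at least 1.08-fold and RRP9 at least 1.01-fold. RRP9, the protein that binds U3 snoRNA specifically, read 74.2 in parental and 71.5 in nilotinibR cells.

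Of the 7 snoRNP proteins, 6 were lower and DKC1 did not pass the limit. FBL (fibrillarin), the box C/D methyltransferase, read 3798 in parental and 2036 in nilotinibR cells, 1.87-fold lower. Its scaffold proteins NOP56 and NOP58 were 1.94-fold and 1.72-fold lower, and the 3 probes of NOP56 lay between −1.14 and −0.75. Among the box H/ACA proteins, NHP2 went from 1331 to 552, 2.41-fold lower over 4 probes between −1.36 and −1.20. GAR1 was 1.99-fold lower over 4 probes and NOP10 1.60-fold lower over 2. DKC1 (dyskerin), the pseudouridine synthase of the same particle, read 2954 and 2647, a log2 difference of −0.16 on 1 probe. NOP10, the nearest of its partners, stood at −0.68, GAR1 at −0.99 and NHP2 at −1.27. Probes of 1 factor differed by up to 0.54, with a median of 0.13 over the 13 factors with several probes. The distance of DKC1 from NOP10 was below the largest of these ranges but above the median. Its distances from GAR1 and NHP2 were above all of them, and with 1 probe for DKC1 this was not tested.

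All 4 measured nucleolar chaperones and other proteins were lower. NOLC1, also called Nopp140, which accompanies both snoRNP classes, read 466 in parental and 144 in nilotinibR cells, 3.23-fold lower. NPM3, of the nucleoplasmin family, went from 1325 to 607, 2.18-fold lower. NCL (nucleolin) went from 1161 to 545, 2.13-fold lower, on probes at −1.15 and −1.03. LYAR was 1.90-fold lower.

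Set side by side, 12 of 16 measured LSU factors and 8 of 19 measured SSU factors were lower, both above the 8.22% of all genes. The median log2 difference was −1.10 for the LSU and −0.52 for the SSU factors, so the SSU median lay 0.58 higher, and with 1 array per condition this was not tested. Brightness, taken as the mean log2 level over both arrays, moved with the split. Among the 23 dimmer of the 46 were 13 of the 19 SSU and 9 of the 16 LSU factors. That level includes the nilotinibR reading, so the brighter and dimmer sets are not independent of the difference. Among the 23 brighter factors the SSU median was −0.85 over 6 genes and the LSU median −1.05 over 7, a gap of 0.21. Among the 23 dimmer ones they were −0.43 and −1.17. The part of brightness in the gap was not tested further.

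The assembly factors outside the 50 did not repeat this order. Of 36 other measured SSU factors 18 were lower, with a median of −0.56, and of 42 other measured LSU factors 15 were lower, with a median of −0.42. With no filter on dim probes these medians were −0.40 and −0.41. No gene of either list was at least 1.5-fold higher. Taking the factors inside and outside the 50 together, the medians were −0.52 over 55 SSU and −0.55 over 58 LSU factors.

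**Figure D3:**
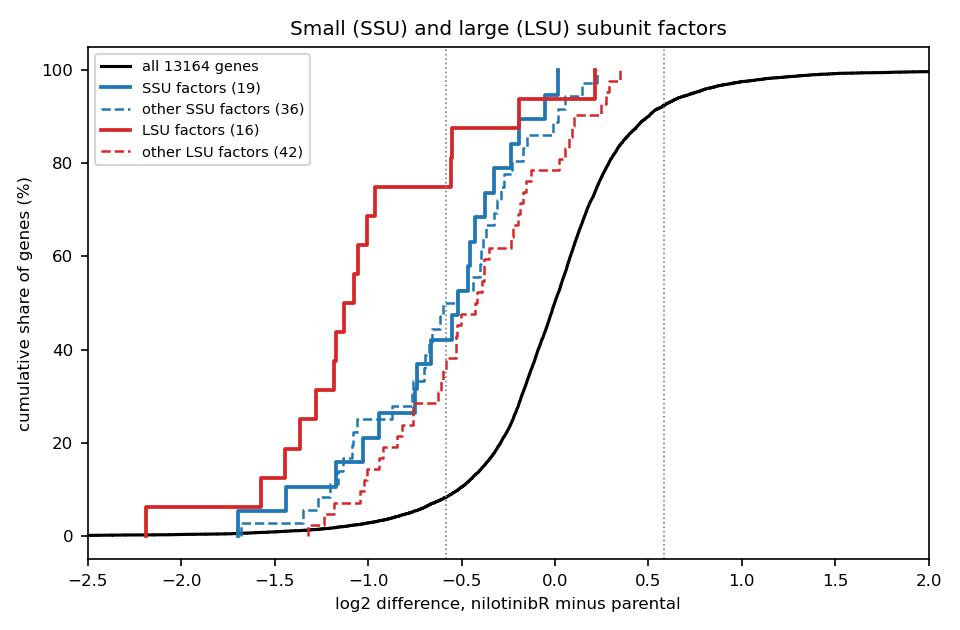
Cumulative share of genes (%) against the log2 difference, nilotinibR minus parental, for SSU (19) and LSU (16) factors (solid), other SSU (36) and other LSU (42) factors (dashed) and all 13164 genes (black). Dotted lines mark 1.5-fold. The medians of all 4 coloured curves lie left of the black curve's median, and that of the solid LSU curve lies farthest left, at −1.10.

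Among those other factors, LTV1, which is released late from the SSU precursor, went from 1182 to 369, 3.20-fold lower. IMP4 and DDX10, a protein of the U3 particle and a nucleolar helicase, were 2.54-fold and 2.41-fold lower. NIFK, which binds the proliferation antigen Ki-67, was the LSU factor with the largest decrease, from 882 to 353, 2.50-fold lower, ahead of PAK1IP1 (2.35-fold) and NOC3L (2.27-fold). The highest 2 of each list stayed within the limit, at 0.35 for URB1 and 0.29 for NOP53 among the LSU factors and 0.23 for PDCD11 and 0.14 for PWP2 among the SSU factors. The RNA exosome trims rRNA precursors. Of its 11 measured genes 4 were lower and 0 were higher, with EXOSC5 2.07-fold, EXOSC4 1.79-fold and EXOSC7 1.71-fold lower, and EXOSC10 and EXOSC1 at 0.31 and 0.22.

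The ribosomal proteins themselves had a median near no difference. Of 74 measured cytosolic ribosomal protein genes 10 were lower and 5 higher, with a median log2 difference of 0.04. The lower ones were 13.5% of them, beside the 8.22% lower and 7.51% higher of all genes. Some of these calls average probes that differed in sign. The probes ran from −2.27 to 0.04 for RPL6, from −2.19 to 0.09 for RPS15 and from −1.43 to 0.08 for RPS24. RPL29 (3.29-fold), RPS7 (3.02-fold) and RPL39L (2.10-fold) were the lowest against parental cells, and RPL37 (2.31-fold) and RPL22 (1.73-fold) were the highest. Many ribosomal protein genes have near-identical pseudogenes, and whether a probe reads 1 copy was not tested. These genes were also bright, with a median reading of 6217 in parental and 7166 in nilotinibR cells. The highest deposited intensities were 21126 on the parental and 22044 on the nilotinibR array. Whether the brightest probes could still show a difference was not tested, so the median does not show that these genes were unchanged.

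**Figure D4:**
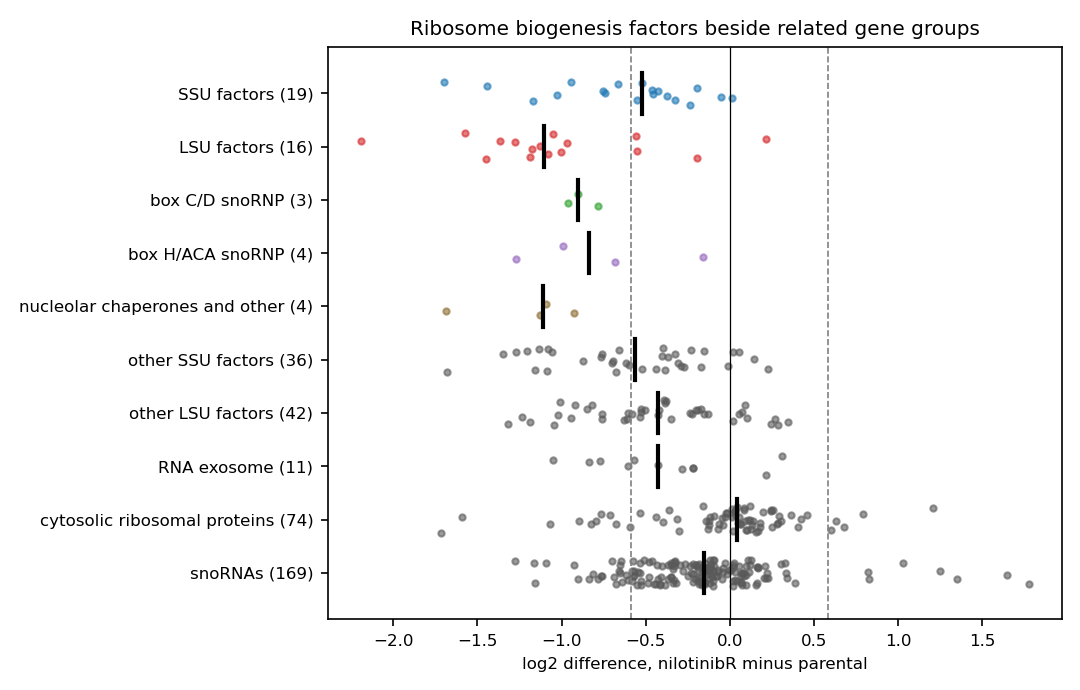
Log2 difference, nilotinibR minus parental, of single genes (points, with random vertical spread) in the 5 role groups (coloured) and in related groups (grey), with the number measured in brackets. Black bars are medians and dashed lines 1.5-fold. Medians of the assembly factor groups lie between −1.11 and −0.42, and that of the 74 ribosomal proteins lies at 0.04.

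The snoRNAs, which the proteins above package, were listed together with small Cajal body RNAs (SCARNA symbols). Of 169 measured, 21 were lower (12.4%) and 7 higher, beside 8.22% lower and 7.51% higher of all genes. Their median was −0.15. Most read near the dim probes. Their median reading was 99.9 in parental and 83.3 in nilotinibR cells, and 125 of the 169 lay above the dim probes on both arrays. The offset compresses differences of such readings, so the small median does not show that the snoRNAs were unchanged. SNORD14C was 2.42-fold lower, from 225 to 92.9, followed by SNORA73B and SNORA13, both at −1.16. The U3 genes went the other way. SNORD3D read 412 in parental and 1411 in nilotinibR cells, 3.43-fold higher, and SNORD3C 233 and 728, 3.13-fold higher. SNORD3A, the remaining U3 gene measured, and SNORD13, the U13 snoRNA, were named after their values had been seen. They were 2.56-fold and 2.38-fold higher. U3 and U13 are transcribed from genes of their own, while most human snoRNAs are cut from introns of host genes. The copies of U3 are nearly identical, so their 3 probes may read the same RNA. The U3 readings were thus higher where 0 of the 19 SSU factors were higher. IMP4, a protein of the U3 particle, was 2.54-fold lower, but it was among the largest decreases of the other SSU factors. In the same list MPHOSPH10 stood at −0.87, IMP3 at −0.39 and PWP2 at 0.14. RRP9, which binds U3 specifically, stood at −0.05, with its nilotinibR reading dim. Mature snoRNAs have no poly(A) tail, and which form of them the arrays labelled was not tested.

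MYC itself read 1290 in parental and 383 in nilotinibR cells over 2 probes, 3.37-fold lower (log2 difference −1.75). MYC and its partner MAX bind the E-box CACGTG, a palindrome that reads the same on both strands. It was searched in RefSeq promoter windows of GRCh38.p14, from 250 bases before to 50 after the start site, which covered 43 of the 50 genes with 49 windows. The E-box stood in 19 of the 49 windows (38.8%), beside 9.12% of the 14890 windows of measured genes and 7.26% of all 35116 windows. Of the 21 copies, 16 began within 50 bases of the start site. The variant CACGCG, searched together with its reverse complement CGCGTG, stood in 12 of the 49 windows (24.5%), against 16.3% of windows of measured genes and 11.4% of all windows. The strings do not contain each other, and 4 windows of these factors held both.

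The E-boxes of 5 genes with their surroundings are shown because they span a range of differences. It runs from MRTO4, nearly 3-fold lower, to NOL6, where a probe close to the dim level was averaged with one at −0.44. MRTO4 and NOP2 are the genes shown from the 15 largest decreases, by the rule for sequences. PES1, FBL and NOL6 were chosen after their values had been seen. The letters run 5′ to 3′ on the gene's strand, with the E-box in capitals. The MRTO4 site lies at chr1:19251807-19251836 (plus strand), NOP2 at chr12:6568242-6568268 (minus), PES1 at chr22:30591880-30591909 (minus), FBL at chr19:39846356-39846385 (minus) and NOL6 at chr9:33473894-33473923 (minus).
MRTO4: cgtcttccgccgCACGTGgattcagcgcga
NOP2: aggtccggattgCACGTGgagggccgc
PES1: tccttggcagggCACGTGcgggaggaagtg
FBL: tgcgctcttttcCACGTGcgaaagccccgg
NOL6: ggcatttccgccCACGTGggaagctatgag

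All 5 motifs begin just downstream of the start site, at base 15 in MRTO4, 36 in NOP2, 14 in PES1, 7 in FBL and 14 in NOL6. The log2 differences of these genes were −1.57, −1.28, −1.08, −0.90 and −0.19 in the same order. The window of NOP16, the factor with the largest decrease, held no CACGTG. Over all measured factors with a window, the 15 with an E-box had a median log2 difference of −0.90, with 10 of them lower, and the 24 without one had a median of −0.96, with 15 lower. The factors with and without the motif thus overlapped in their differences, and a match of letters is not a measured binding site.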

How the data were processed

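The authors labelled total RNA of parental and nilotinibR K562 cells, hybridized each to 1 HumanHT-12v4 BeadChip and processed the scans with GenomeStudio. Their methods name RMA normalization, and how far it was applied to this table is not stated in those methods. What the authors deposited are linear intensities between 88.2 and 22044, from which no background had been taken. Another 4 columns of signals and detection p-values have names that match no label and were not used.

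With limma 3.58.1 in R 4.3.3, intensities were background-corrected (normexp, offset of 50), quantile normalized and log2-transformed. Probes were kept if their deposited intensity lay above 120 (parental) or 119 (nilotinibR), the level that 5% of the dim probes would exceed. Of 47323 probes, the platform annotation named 1 gene for 30113, more than 1 for 8 and none for 17202. RefSeq gave current symbols (30074 found), and a gene's value is the mean of its kept probes (17585 probes, 13164 genes). A factor above the dim probes on 1 array was bounded against the lowest measured level on the other. Scripts were tested on simulated data.

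With 1 array per condition no test was possible and precision is limited by the number of arrays. Lists are described by counts past 1.5-fold and medians. The factors and lists were chosen with earlier results of these data known. Values are given for the 15 largest differences, each factor that was higher, whose probes differed in sign or by more than 1 (log2) or that lay nearest 0, and MYC. For each other list up to 3 decreases and 2 increases are given, and also the ribosomal protein genes called lower whose probes differed in sign. The alternatives were other background, scaling, filter, probe and fold settings.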

Additional observations from a re-analysis of the deposited data

How the results depend on the processing

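The direction of the median over the 46 factors held in all 8 alternatives of background correction, scaling, filter and probe choice, from −0.78 with no filter on dim probes to −1.03 with 75th percentile scaling. The factors at least 1.5-fold lower numbered between 29 and 35, and 0 were higher in any of them. The share of all genes that were lower ran from 4.96% with no filter on dim probes to 12.5% with an offset of 16. The count of 35 factors came with that offset of 16. Of the 30 factors that were lower, 28 were lower in all 8. UTP14A missed the limit with its brightest probe alone (−0.55), and RRP1 did with its dim probe averaged in (−0.58). SSU factors that were lower numbered between 7 and 11 and LSU factors between 11 and 14. The SSU median lay above the LSU median by 0.47 to 0.62, and by 0.21 over brighter factors alone, a setting chosen after seeing the data. At 2-fold in place of 1.5-fold, with the other settings unchanged, 19 factors were lower, 4 SSU and 11 LSU. Over all genes, 1652 were lower with an offset of 16, against 1082 with an offset of 50, and 366 were at least 2-fold lower. Of 365 values of single factors under these alternatives, 45 moved by more than the probe SD of 0.16 and 0 of the called ones turned sign.

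With 1 array per condition, leaving out a replicate was not possible, and array, culture and labelling effects cannot be told apart from resistance. The resistant cells were maintained with nilotinib and the parental cells without it. An effect of the drug in the medium therefore cannot be told apart from resistance either. No paired analysis was possible because each group holds 1 sample. Differences of dim probes are compressed by the offset, and factors near the dim probes, such as RRP9, WDR3 and UTP20, have only a bound.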
